A study of Citrus reticulata with 36 samples.

Results

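In laser-captured ovule tissue of ponkan mandarin (Citrus reticulata), a block of transcripts swung together between replicate libraries of the same group, and c44015_g1 was used as its reference feature. The 150 members are, of the 128861 features in the deposited tables, those whose level followed c44015_g1 most closely over the 18 integument libraries. The members were chosen by measured values. Counts were scaled to CPM (the count divided by the library total, times 1000000), taken as log2(CPM + 1), and centred on the mean of each group of 3 libraries. Features with a mean of at least 5 CPM and a standard deviation (SD) of the centred values of at least 1 were kept, which left 832. The 150 of these with the highest Pearson correlation (r) with c44015_g1 are the members, c44015_g1 itself included. The correlations in the integument therefore chose the members and are given as a description. The nucellus libraries did not enter the choice.

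The study captured nucellus and integument at 18, 28 and 32 days after pollination (DAP) from a pair of cultivars, MT (Huagan No.4 ponkan) and WT (Egan No.1 ponkan). It has 36 libraries, 3 in each of 12 groups of tissue, cultivar and stage. No treatment separates the groups, and the labels do not say what MT stands for, how many trees or ovules went into a capture, or whether captures of both tissues with the same replicate number came from the same ovules. The replicates are labelled biological, and p-values measure only the spread between them.

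The nucellus is the maternal tissue that encloses the embryo sac, and in polyembryonic citrus it is also the tissue from which asexual nucellar embryos arise. The integument surrounds it and matures into the seed coat. The feature identifiers carry no gene names, so no member could be assigned a function, no pathway could be listed, and the labelled tissues could not be checked against marker genes. Members are described by their levels and by what they share across libraries.

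Library totals ran from 12687779 to 20947644 counts, so that 1 count corresponded to well under 1 CPM in each library. Scaling factors by the trimmed mean of M values (TMM) ran from 0.592 to 1.23. The library that stood apart most was WT nucellus at 28 DAP, replicate 1, with the factor of 0.592 and 51.7% of its counts in its 100 most abundant features. Some results on correlations over nucellus libraries and over pairs are also given without it or without the 2 farthest libraries. The others include it.

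c44015_g1 ran from 0 to 218 CPM in the integument, with a median of 40.9 CPM over the 18 libraries. At 18 DAP the MT integument libraries held 7.67, 34.7 and 0.0652 CPM in replicates 1, 2 and 3, and the WT libraries 99.4, 90.3 and 1.90 CPM. Replicate 3 was the lowest in both groups, at 1 count in MT and 37 counts in WT. At 28 DAP the MT integument libraries held 39.8, 84.0 and 41.9 CPM, and the WT libraries 0, 117 and 11.9 CPM. Here the MT libraries stayed within 2.11-fold of each other, whereas WT replicate 2 was at least 815-fold above WT replicate 1, with the absent counts of replicate 1 set at a floor of 3. At 32 DAP the MT integument libraries held 74.4, 0.246 and 46.9 CPM, and the WT libraries 39.4, 159 and 218 CPM. MT replicate 2 lay 302-fold below replicate 1 on only 4 counts, while WT replicate 1 lay 5.53-fold below replicate 3.

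In the nucellus the same feature was lower, from 0.0493 to 65.7 CPM with a median of 12.7 CPM. At 18 DAP the MT nucellus libraries held 5.71, 8.91 and 0.338 CPM in replicates 1, 2 and 3, and the WT libraries 19.3, 12.7 and 0.479 CPM. At 28 DAP the MT nucellus libraries held 14.6, 12.7 and 14.6 CPM, and the WT libraries 0.0493, 31.0 and 5.20 CPM. At 32 DAP the MT nucellus libraries held 18.4, 0.226 and 4.70 CPM, and the WT libraries 13.0, 46.4 and 65.7 CPM. In 5 of the 6 combinations of cultivar and stage the lowest nucellus library carried the same replicate number as the lowest integument library. The exception was MT at 28 DAP, where the nucellus libraries lay within 1.15-fold of each other.

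**Figure D1:**
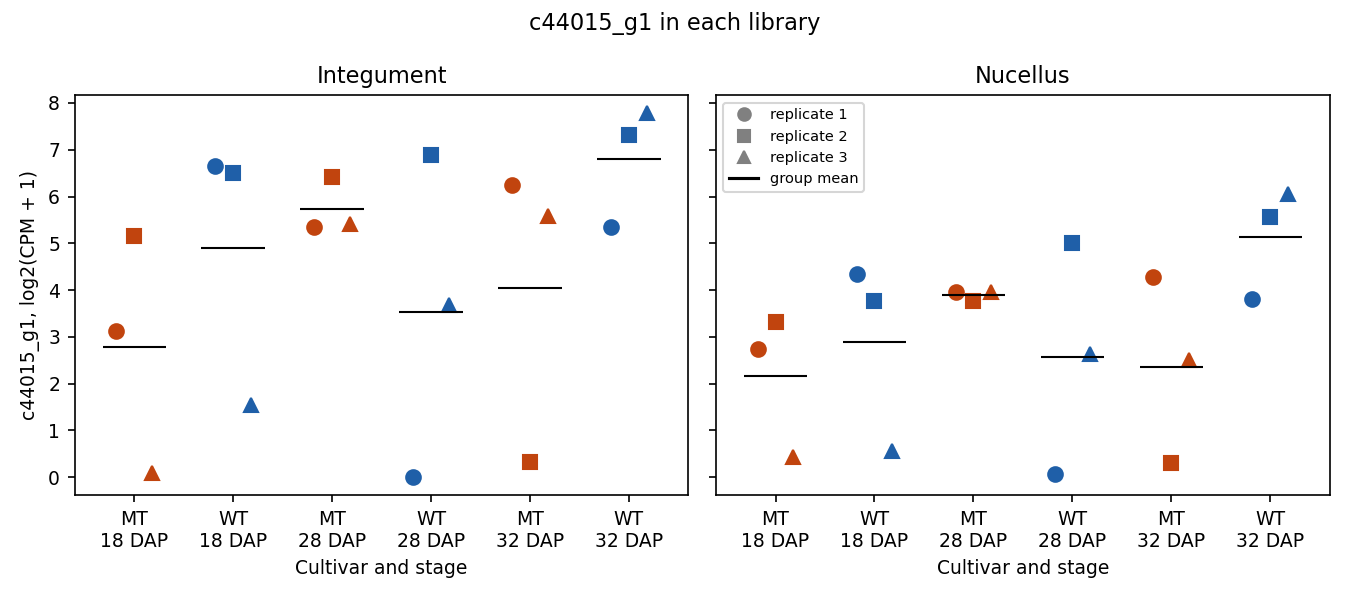
Level of c44015_g1 as log2(CPM + 1) in each of the 36 libraries, by cultivar and stage, with the replicate number as the symbol and the group mean as a line. In the integument and the nucellus alike, replicate 3 at 18 DAP, WT replicate 1 at 28 DAP and MT replicate 2 at 32 DAP were the lowest, and the MT libraries of 28 DAP lay close together.

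Over the 18 pairs of same-numbered captures, the deviation of c44015_g1 from its group mean in the integument was closely related to that in the nucellus. Pearson's r was 0.967 and Spearman's rho 0.934 (two-sided exact permutation of the nucellus replicate numbers within each cultivar and stage, p = 0.000193 and 0.000257). The 2 pairs farthest out were MT replicate 2 of 32 DAP and WT replicate 1 of 28 DAP. Without them r was 0.947, and without only the WT replicate 1 pair of 28 DAP it was 0.956. Both deviations had the same sign in 15 of 18 pairs, and the order of the 3 replicates was the same in both tissues in 5 of 6 combinations. The slope of the nucellus deviation on the integument deviation was 0.653 on the log2(CPM + 1) scale, which compresses the lower nucellus values. In bulk captures, fewer cells of a type and less RNA per cell cannot be told apart.

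**Figure D2:**
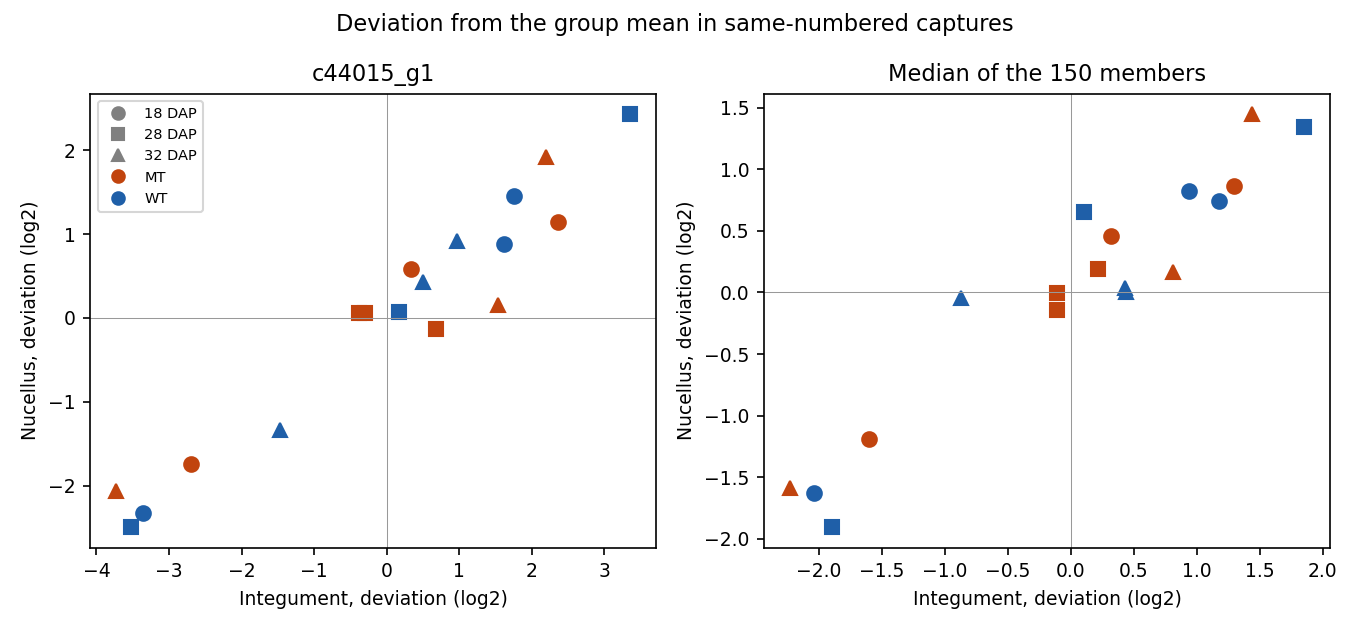
Deviation from the group mean, as log2(CPM + 1), in the integument (x axis) and the nucellus (y axis) for the 18 same-numbered pairs, for c44015_g1 and for the median over the 150 members. Colour gives the cultivar and symbol the stage. The points of c44015_g1 lie along a line (r = 0.967), and the member medians have the same sign in 18 of 18 pairs. Some nucellus medians lay so near 0 that their sign says little. Among them were -0.008 in MT replicate 1 of 28 DAP and -0.044, 0.005 and 0.033 in WT replicates 1, 2 and 3 of 32 DAP.

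The members closest to c44015_g1 in the integument were c100080_g1 (r = 0.997), c7130_g1 (0.994), c12883_g1 (0.992), c1390_g1 (0.991) and c19684_g1 (0.990), each over 18 libraries. The first 2 of these also tracked it in absolute level. In the 29 libraries with at least 20 counts of c44015_g1, the count of c100080_g1 was between 0.279 and 0.811 times that of c44015_g1, and the count of c7130_g1 between 0.273 and 0.892 times. For c12883_g1 the same ratio ran from 0.161 to 3.67 and for c1390_g1 from 0.192 to 6.69. The lengths implied by the deposited counts and FPKM (counts scaled to length and library total) were 407 bases for c44015_g1, 405 for c100080_g1 and 287 for c7130_g1, against 2228 for c12883_g1 and 1217 for c1390_g1. RSEM, which the submitters' processing notes name, divides reads between similar sequences, and whether these 3 short features share sequence was not tested.

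At the other end of the list, the last member, c22658_g1, had an r of 0.963269, and the next feature outside it, c111496_g1, one of 0.963213. The list is thus the head of a larger group without a gap at its edge. Of the 832 features that passed both filters, 424 (51.0%) had an r of at least 0.9 with c44015_g1, and 162 (19.5%) had one of -0.5 or lower. Only 109 lay between -0.5 and 0.5. Among themselves the members had a median pairwise r of 0.958 in the integument, with the lowest pair at 0.873. These values follow from the choice of members.

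**Figure D3:**
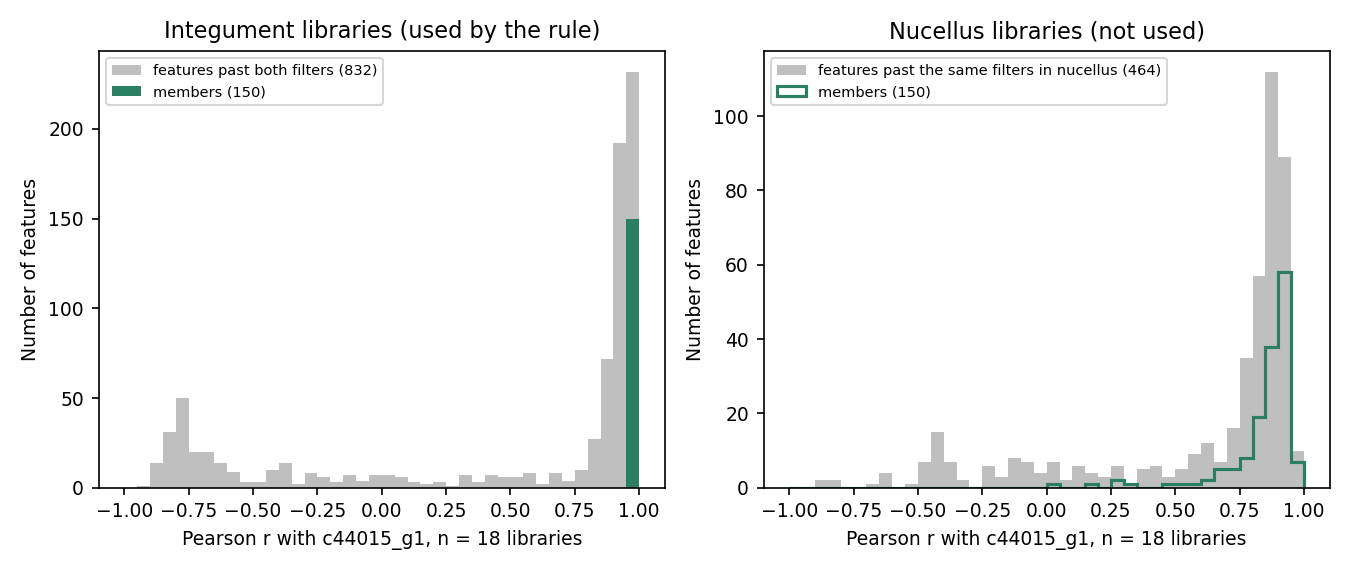
Number of features by Pearson r with c44015_g1 over 18 integument libraries (left; all 832 that passed the filters in grey, the 150 members in green) and over 18 nucellus libraries (right; the 464 features that passed the same filters in the nucellus in grey, the members as a green outline). In the nucellus, which the choice did not use, 144 of the 150 members had an r of at least 0.5, among features that mostly did so too (75.9%).

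The members ranged widely in level. Per length, c23684_g1 was the highest in the integument at 150 ± 113 FPKM (SD, n = 18), followed by c44015_g1 at 146 ± 147 and c122742_g1 at 138 ± 96.4 FPKM. The spreads overlap almost fully, so the order among these 3 is not set. The median member averaged 8.79 FPKM, and the lowest 1.71 FPKM. The size of the swing also differed. The SD of the centred log2(CPM + 1) values was 2.19 for c122742_g1, 2.15 for c44015_g1 and 1.93 for c22139_g1, against a median of 1.26 over the members and a lower limit of 1 set by the choice.

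In individual integument libraries c122742_g1 ran from 0.123 to 246 CPM with a median of 132 CPM. Its lowest value was in MT at 32 DAP, replicate 2, beside 149 and 118 CPM in replicates 1 and 3. In MT at 28 DAP, the group with the smallest swing of c44015_g1, it held 246, 159 and 145 CPM. c22139_g1 ran from 0.246 to 121 CPM with a median of 27.5 CPM, again with the lowest library in MT at 32 DAP, replicate 2.

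In 5 of the 6 integument groups all 150 members were at their lowest in 1 and the same library, which follows from their choice by r over these libraries. These were replicate 3 at 18 DAP in MT and WT, replicate 1 at 28 DAP in WT, replicate 2 at 32 DAP in MT and replicate 1 at 32 DAP in WT. Of the 28599 features with at least 5 CPM in the integument, 46%, 59.5%, 44.6%, 45.4% and 45.3% were lowest there too. The median member deviated there by -1.60, -2.04, -1.90, -2.23 and -0.88 on the log2(CPM + 1) scale. In MT at 28 DAP the 3 medians were -0.11, 0.22 and -0.11, and the lowest library differed between members, with 69 in replicate 1 (30.8% of features), 17 in replicate 2 and 64 in replicate 3. Together the members took 0.0353%, 0.0508%, 0.0321% and 0.0241% of the counts in the first 4 of the low libraries and 0.296% in WT replicate 1 of 32 DAP. In the remaining 13 integument libraries they took between 0.195% and 0.724%. The 4 low libraries lay apart, and no library fell between 0.0508% and 0.195%, the share in WT replicate 3 of 28 DAP.

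The nucellus libraries gave a view that the choice of members had not used. At 18 DAP, 142 of 150 members were lowest in MT replicate 3 and 147 in WT replicate 3. At 28 DAP, 141 were lowest in WT replicate 1, and at 32 DAP, 145 were lowest in MT replicate 2. Many other features did the same: of the 28012 features with a mean of at least 5 CPM in the nucellus, 44% were lowest in that MT library of 18 DAP, 73.8% in the WT library of 18 DAP, 68.8% in the WT library of 28 DAP and 49.2% in the MT library of 32 DAP. The median member deviated by -1.19 and -1.63 in replicate 3 of MT and WT at 18 DAP, by -1.91 in WT replicate 1 at 28 DAP and by -1.59 in MT replicate 2 at 32 DAP. Within these 4 groups the median member spanned 2.07, 2.58, 3.28 and 3.04 log2 units from its lowest to its highest library, whereas the median feature with at least 5 CPM spanned 0.557, 0.766, 1.07 and 0.686. Unlike those features, the members had passed the SD filter in the integument, and spans of the other filtered features were not compared.

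The other 2 nucellus groups showed little of the swing. In MT at 28 DAP the median member spanned 0.563 log2 units against 0.565 for the median feature, and 48 of 150 members were lowest in replicate 1, against 29.3% of features. There 22 members were lowest in replicate 2 and 80 in replicate 3, for which shares of all features were not counted. In WT at 32 DAP the median member spanned 0.387 against 0.429, and 70 members were lowest in replicate 1, against 32.7% of features. In the integument of that last group all 150 members had been lowest in replicate 1, with a median span of 1.41 log2 units. The drop in WT replicate 1 at 32 DAP was thus seen in the nucellus for some members and not for others. There c100080_g1 held 9.44 CPM in replicate 1 against 30.4 and 41.6 CPM in replicates 2 and 3, and c7130_g1 held 6.33 against 19.4 and 27.7 CPM. c12883_g1 held 34.1 CPM against 30.9 and 36.0 CPM, and c1390_g1 57.0 against 53.2 and 56.4 CPM. c105858_g1 went the other way, with 62.9 CPM in replicate 1 and 20.3 and 20.2 CPM in replicates 2 and 3.

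**Figure D4:**
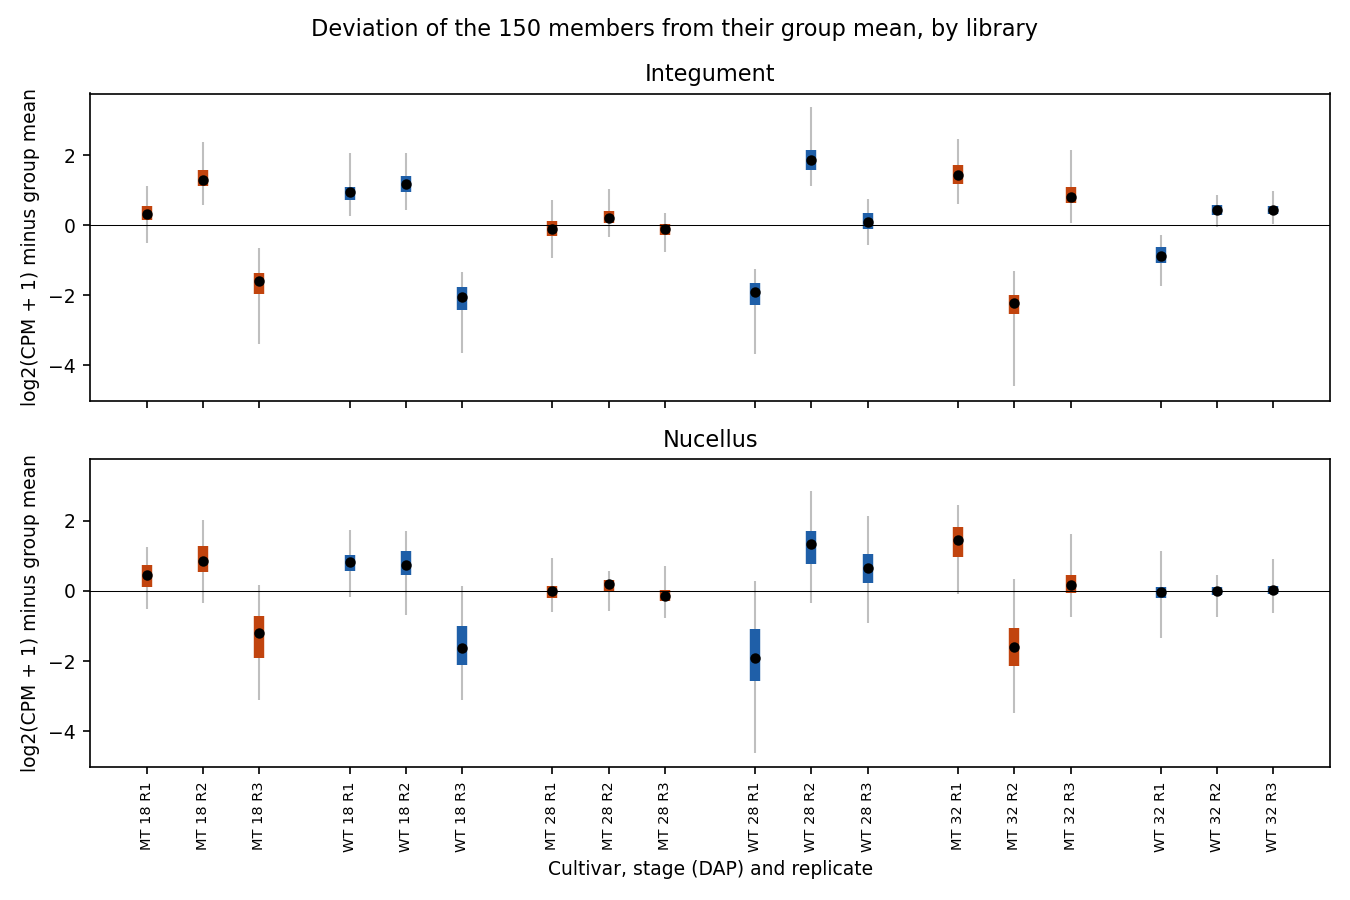
Deviation of the 150 members from their group mean, as log2(CPM + 1), in each library of the integument (top) and nucellus (bottom). Black points are the median member, thick bars the middle 50% of members and thin lines their full range. The median fell to between -1.60 and -2.23 in 4 integument libraries and to between -1.19 and -1.91 in the same-numbered nucellus libraries.

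Over the 18 nucellus libraries, 144 of 150 members had an r of at least 0.5 with c44015_g1, with a median r of 0.891. Of the 464 features that passed the level and SD filters in the nucellus, 75.9% did, as did 39.5% of all features with a mean of at least 5 CPM there. Among the 76 members that passed both nucellus filters, all did, with c44015_g1 itself counted. These 76 are also part of the 464. The swing of c44015_g1 was thus shared well beyond the list. Without WT replicate 1 of 28 DAP the number of members was 143. It was 143 of 150 within the 9 MT libraries and 143 within the 9 WT libraries, and between 139 and 147 within the 6 libraries of a stage. The members' median r over the nucellus was 0.947 in MT and 0.878 in WT, and the difference was not tested.

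Of the 6 members below 0.5, 5 were low in the nucellus, with mean levels from 0.0453 to 2.59 CPM. The other was c85000_g1, with a nucellus r of 0.28 at a mean nucellus level of 30.7 ± 14.6 CPM and a mean integument level of 27.7 ± 15.9 CPM (SD, n = 18). In the WT nucellus libraries of 28 DAP it held 36.3, 26.7 and 42.4 CPM in replicates 1, 2 and 3. In the integument libraries of the same numbers it held 4.92, 35.9 and 21.9 CPM. The replicate that was lowest in the integument was thus in the middle in the nucellus. The next lowest r among members with at least 5 CPM in the nucellus was that of c105858_g1, at 0.64. The highest were those of c100080_g1 and c7130_g1, each at 0.99.

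Each member can also be set against itself across tissues. Over the 18 same-numbered pairs, the integument and nucellus deviations of 144 of 150 members had an r of at least 0.5, with a median of 0.898. Without the WT replicate 1 pair of 28 DAP these were 145 members and a median of 0.887. Of the 25766 features with at least 5 CPM in both tissues, 48% reached 0.5, with a median of 0.483. The members had been chosen for a large integument SD. Among the 529 features that passed the integument filters and had at least 5 CPM in the nucellus, 90.4% reached 0.5, with a median of 0.851.

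Within-group differences made up a median of 73.4% of the variance of log2(CPM + 1) over the integument libraries (from 57.5% to 88.8%) and 69.6% over the nucellus libraries. With 6 groups of 3 libraries, 70.6% of the degrees of freedom lie within groups, so these medians were close to the share given by groups that do not differ. Without WT nucellus replicate 1 of 28 DAP the nucellus median was 62.9%, beside 68.8% of the degrees of freedom. For all features with at least 5 CPM the medians were 63.6% and 65.4%. The SD filter acted on the within-group differences in the integument, so that value follows the choice.

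The cultivar comparisons asked whether MT and WT differed within a tissue and stage. No member was called in any of the 6 comparisons (edgeR, Benjamini-Hochberg adjusted p under 0.05 over the 57344 tested features, all 150 members among them). The choice required a within-group SD of at least 1 in the integument, and the tests weigh group differences against such spread. A count of 0 was thus favoured by the choice and does not show that MT and WT were alike. Calls over all tested features, which faced no SD filter, were also few. In the integument they were 0.00698% of tested features at 18 DAP, 0% at 28 DAP and 1.02% at 32 DAP, and in the nucellus 0.00174%, 0% and 0.0541%. At an unadjusted p under 0.05 there were 3, 7 and 5 members in the integument at the 3 stages, beside 5095, 3841 and 7422 features. In the nucellus there were 0, 1 and 2 members, beside 4304, 7085 and 5466 features. DESeq2 called 0 members in each, beside 115, 20 and 1894 features in the integument and 11, 485 and 442 in the nucellus. With limma on log2(FPKM + 1), 0 members were called too, but more had an unadjusted p under 0.05 in some comparisons. In the integument there were 2, 24 and 15 such members, beside 4850, 2882 and 8638 features. In the nucellus there were 0, 5 and 20, beside 4059, 8241 and 5734 features.

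For c44015_g1 the MT-minus-WT log2 fold change in the integument was -2.05 ± 1.71 (SE) at 18 DAP, 0.54 ± 1.64 at 28 DAP and -1.70 ± 1.68 at 32 DAP (edgeR, adjusted p = 0.785, 0.971 and 0.741). In the nucellus it was -1.04 ± 1.72, 0.16 ± 1.66 and -2.48 ± 1.75 (edgeR, adjusted p = 0.940, 0.983 and 0.683). Both 28 DAP values changed sign when single libraries were left out (to -0.061 in the integument and -0.42 in the nucellus without WT replicate 1). The libraries of MT and WT overlapped in each of the 6 comparisons. The least overlap was in the nucellus at 32 DAP, where MT replicate 1 (18.4 CPM) exceeded WT replicate 1 (13.0 CPM) and the other MT libraries lay below all WT libraries. The median member's log2 fold change followed the same signs, at -0.90, 0.91 and -0.78 in the integument and -0.57, 0.51 and -1.21 in the nucellus at 18, 28 and 32 DAP.

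The stage comparisons gave the same count, and the same limit from the SD filter applies to them. No member was called over the 3 stages in either tissue (edgeR, adjusted p under 0.05), beside 0.171% of tested features for the nucellus and 0.0663% for the integument. At an unadjusted p under 0.05 there were 3 members in the nucellus and 0 in the integument, beside 7225 and 5264 of the 57344 features. DESeq2 called 0 members in both, beside 925 and 515 features. No member had a cultivar difference called as changing over the stages, beside 0% of tested features in the nucellus and 0.378% in the integument. With an unadjusted p under 0.05 there were 0 and 3 members, beside 6634 and 6750 features. By DESeq2 there were 0 members in both tissues, beside 399 and 1259 features. By limma on log2(FPKM + 1) 0 members were called, and 2 and 27 had an unadjusted p under 0.05, beside 6656 and 6709 features. Over the 3 stages limma had 0 members in both tissues at that threshold, beside 6695 and 5326 features. The group means of c44015_g1 in the integument lay between 14.1 ± 18.2 CPM (MT, 18 DAP; SD, n = 3) and 139 ± 90.9 CPM (WT, 32 DAP), and the SD exceeded the mean in 2 of the 6 groups (MT at 18 DAP and WT at 28 DAP, 42.9 ± 64.2 CPM).

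The tissue comparison asked which transcripts distinguish nucellus from integument. Of the 150 members, 52 (34.7%) passed the threshold, 49 toward the integument and 3 toward the nucellus (edgeR, adjusted p under 0.05). Over all tested features 35.5% passed, 18.9% toward the integument and 16.6% toward the nucellus. In this model, which has no replicate term, the members' total was near that background. Among the 832 features that passed the filters, which asked for at least 5 CPM in the integument alone, 52% passed, 399 toward the integument and 34 toward the nucellus. Without a replicate term the filters thus carry the same direction as the members. With limma on log2(FPKM + 1) the split of the members was 41 and 9. With the replicate number as a block, a pairing that the labels do not state, 102 members passed (68%), 55 toward the integument and 47 toward the nucellus. Under the block 42.5% of all tested features and 70.4% of the filtered 832 passed, the latter 427 toward the integument and 159 toward the nucellus. The filtered features thus stayed one-sided under the block, and the members did so less. Both the members' nearness to the background of all features and their one-sided split depend on leaving the block out.

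The median member had a nucellus-minus-integument log2 fold change of 0.10, against 0.04 over all tested features, and 95 of 150 members lay within 1 log2 unit of 0. The distribution had a long tail on the integument side, where 10 members were below -4. The choice asked for at least 5 CPM in the integument alone, which favours a tail on that side. For all tested features, the numbers within 1 log2 unit and below -4 were not counted. c122742_g1 averaged 109 ± 76.4 CPM across integument libraries and 1.94 ± 1.51 CPM across nucellus libraries (SD, n = 18 each). Its log2 fold change was -5.79 ± 0.65 (SE), with adjusted p = 4.69e-08 by edgeR. Its range in the nucellus, from 0.148 to 5.76 CPM, overlapped its lowest integument libraries, at 0.123, 1.38 and 1.43 CPM. c23684_g1 averaged 51.5 ± 37.8 and 5.34 ± 3.59 CPM, with -3.28 ± 0.53 on the log2 scale (adjusted p = 1.38e-05 by edgeR). c22139_g1 had similar levels in both tissues, with 43.6 ± 41.5 CPM in the integument and 41.4 ± 30.2 CPM in the nucellus. For c44015_g1 the change was -2.06 ± 0.70 (adjusted p = 0.0227 by edgeR). Its call was lost without replicate 2 of MT integument at 18 DAP (log2 fold change -1.76) or of WT integument at 28 DAP (-1.62).

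By size of change, the called members furthest to the integument side were c28390_g1 and c13727_g1. c28390_g1 ran from 0 to 21.9 CPM in the integument, with a median of 12.3 CPM, and from 0 to 0.159 CPM in the nucellus, where 18 libraries held 14 counts in all and 8 held none. Its fitted log2 fold change of -7.95 ± 0.84 (adjusted p = 2.57e-08 by edgeR) rests on those few counts. c13727_g1 averaged 24.9 ± 20.8 CPM across integument libraries and 0.365 ± 0.300 CPM across nucellus libraries, with -6.05 ± 0.57 on the log2 scale (adjusted p = 1.57e-09 by edgeR). Both stayed under 1 CPM in all nucellus libraries and met the level filter only in the integument, so the choice favoured their direction.

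In the opposite direction, c74812_g1 ran from 1.47 to 96.8 CPM over the nucellus libraries, with a median of 48.5 CPM, and from 0 to 30.7 CPM over the integument libraries, with a median of 13.0 CPM. Its log2 fold change was 1.79 ± 0.51 (SE), with adjusted p = 0.00633 by edgeR. c106097_g1 ran from 7.78 to 94.3 CPM (median 46.9) and from 0.239 to 44.9 CPM (median 14.7), with a log2 fold change of 1.48 ± 0.43 (adjusted p = 0.00825 by edgeR). The only other such member, c64694_g1, named after its values were seen, had 1.34 ± 0.45 (adjusted p = 0.0208 by edgeR). The libraries of both tissues overlapped for all 3.

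**Figure D5:**
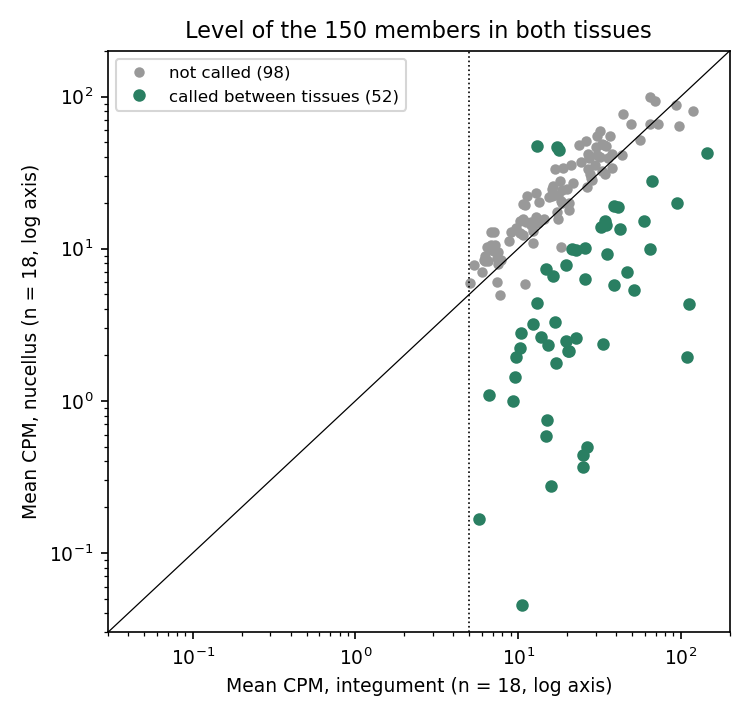
Mean CPM of each of the 150 members in the integument (x axis, log scale) and the nucellus (y axis, log scale), n = 18 libraries each. Green points are the 52 members called between the tissues, the diagonal marks equal levels and the dotted line the minimum of 5 CPM in the integument that the choice required. Of the called members, 49 lie below the diagonal and 3 above it.

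A second list of 150, made by the same rule around c121462_g1, ran against the members. It shared 0 features with them, and its features had a median r of -0.776 with c44015_g1 in the integument. There c121462_g1 itself had an r of -0.843 with c44015_g1. The lack of shared features and the negative median thus follow from building the list around c121462_g1. In WT integument at 28 DAP c121462_g1 held 95.3, 0.114 and 21.3 CPM in replicates 1, 2 and 3, where c44015_g1 held 0, 117 and 11.9 CPM. The opposition was weak in the nucellus, where c121462_g1 averaged 2.16 CPM and its r with c44015_g1 was -0.23.

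Measures of library quality were set beside the swing. Over the 18 integument libraries, the deviation of c44015_g1 from its group mean had an r of 0.701 with that of the TMM factor (rho 0.662; two-sided exact permutation within groups, p = 0.00562, adjusted p = 0.0449 over 8 tests). It was 0.670 without the 2 libraries farthest in TMM factor. In the nucellus r was 0.687 (exact permutation, adjusted p = 0.108) and 0.229 without the 2 farthest. For the share of counts in the 100 most abundant features r was -0.531 in the integument and -0.657 in the nucellus (exact permutation, adjusted p = 0.108 for both). Without the 2 farthest libraries these were -0.371 and -0.162. For the number of features above 0, r was 0.099 and 0.482 (exact permutation, adjusted p = 0.778 and 0.297), and 0.148 and 0.290 without the 2 farthest. For the log2 total count it was -0.234 and -0.285 (exact permutation, adjusted p = 0.636 and 0.516), and -0.127 and -0.228 without them. Integument libraries in which c44015_g1 was low thus tended to have low TMM factors, which leads TMM scaling to raise their CPM. With TMM-scaled CPM the same rule returned 134 of the 150 members, and the r of c44015_g1 between tissues was 0.956. Their part in the swing was not tested.

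What the members share outside their levels is limited by the identifiers. Their implied lengths had a median of 1936 bases, from 287 to 6864. The median was 1700 bases over the 832 features that passed the filters and 2007 over the 28599 features with at least 5 CPM in the integument.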

How the data were processed

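RNA from laser-captured nucellus and integument was amplified with a random-primed linear amplification kit and sequenced as paired ends on 2 instrument models, per the labels' protocols, without saying which library ran on which. RSEM, Bowtie2, cutadapt and DESeq are named, without versions, in the submitters' processing notes, and for the reference sequence the sources used here give no name. The authors deposited estimated counts, whole numbers in the file and used as they stood, and FPKM values scaled by the authors to length and library total. The column names number the stages 1 to 3. These were taken for 18, 28 and 32 DAP, following the design text, and every DAP rests on that.

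CPM and the list of members were computed from the deposited counts with Python 3.11.15, using an SD with divisor n - 1. Tests used edgeR 4.0.16 (R 4.3.3): filterByExpr over the 12 groups, TMM, and 1 quasi-likelihood model with robust estimates and a mean per group over all 36 libraries (common biological coefficient of variation 0.44). Adjusted p-values of this model were taken over the 57344 tested features. DESeq2 calls used that tool's own adjusted p. The exact permutation p-values of c44015_g1 between tissues were not adjusted, and those of the library measures were adjusted over 8 tests. SEs come from the F statistic. Stage and cultivar-by-stage tests had 2 contrasts each. DESeq2 1.42.0 and limma 3.58.1 on log2(FPKM + 1) and log2(FPKM + 0.1) were alternatives. The test and the rule were checked on simulated data. The simulated counts for the test had no swing shared within replicates and no pairing of tissues, so that check does not bear on the block. Floors of 3 counts cover counting error only, since the reads carry no molecular identifiers.

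The members, the comparisons and the rule for naming features were chosen with earlier results of these data known. Named were c44015_g1, the 5 members closest to it, the 3 highest by FPKM, the 3 with the largest SD, both features at the edge of the list, the 2 highest and 2 lowest by nucellus r, up to 2 called members per direction, and c121462_g1.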

Additional observations from a re-analysis of the deposited data

How the results depend on the processing

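The count of 52 members called between the tissues stayed between 45 and 56 with RLE scaling, no filter, DESeq2 and limma, and between 48 and 56 without single libraries. With the replicate number within cultivar and stage as a block it was 102 (68%; 47 toward the nucellus, 55 toward the integument). Without the block, limma put 9 of 50 and 9 of 45 toward the nucellus. Same-numbered captures correlated in their deviations at a median r of 0.37 over features, each best with its own number (18 of 18), but 1 of 18 pairs lay at 0.07, and the labels do not state a pairing, so the block is a hint from the data. The other 10 counts of called members were 0 in each of the 7 other settings and without each of the 36 libraries. A block was among these settings, but a different one: the replicate number within each tissue, across cultivars and stages. The within-group spread that the choice required favours such counts of 0. On log2(FPKM + 1) the rule returned 96 of the 150 members; with the other settings it returned 105 to 147 (144 with an SD of divisor n, a setting chosen after seeing the data) and without single libraries 109 to 140. The cause was not tested. Members with a nucellus r of at least 0.5 numbered 135 (at 0.7) to 145, and 142 to 146 without single libraries. The correlation of c44015_g1 between tissues was 0.934 (Spearman's rho) to 0.973, and Pearson's r was 0.956 to 0.983 without single pairs. The uncalled 28 DAP cultivar difference of c44015_g1 turned in sign, from -0.42 to 2.39 in the nucellus and from -0.061 to 3.22 in the integument, without single libraries. In the nucellus the negative values were -0.42 and -0.22 (without WT replicate 1 or 3), and in the integument -0.061 and -0.042 (without WT replicate 1 or MT replicate 2). The call of c44015_g1 between tissues was also lost with limma (log2 fold change -1.50 and -1.44 on both FPKM scales).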
